A study of Triticum aestivum with 42 samples.

Results

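The leaf and the crown of the winter wheat Harnesk were compared for how each changed between 3 and 9 weeks after germination, as days became colder, shorter and dimmer. The measure was the log2 change in leaf minus the log2 change in crown, called here the response difference. A positive value means that a transcript rose more, or fell less, in leaf than in crown. It takes out the gap between the tissues at the start. A transcript higher in leaf by the same log2 amount at both times has a response difference of 0. The 8 arrays of the contrast, 2 for each tissue and week, were chosen by their labels for variety, tissue and week out of 42 arrays in the series.

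All plants were of the same variety, and the leaf and crown groups shared 1 growth regime. By 9 weeks days were at 8 °C and nights at 4 °C, the photoperiod was 9 h, and photosynthetically active radiation (PAR, unit not stated in the labels) was 95. The settings at 3 weeks were 16 °C, 14 °C, 14 h and 280, in the same sequence. The 4 Harnesk arrays of 5 weeks (14 °C and 10 °C, 12 h, 185) lent their spread to the model and served as a point in between. Temperature, day length, light intensity and plant age changed together, so the part of each cannot be told apart. Each array held RNA pooled from several plants, and the crown samples held the apex with some stem and immature leaf bases. The labels call the replicates biological, and the p-values rest on the variation among those pools.

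Winter wheat flowers only after a long period of cold, and the cold is perceived in dividing cells such as those of the shoot apex in the crown. *TaVRN1*, a MADS-box transcription factor gene, promotes the change from vegetative to reproductive growth and is induced by vernalisation. Leaves carry out most of the photosynthesis, and under cold and low light they adjust their photosynthetic machinery and make protective and defence proteins, while the crown is the organ from which the plant regrows after winter.

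The deposited value of a probe-set, here its normalised intensity, is a linear ratio to that probe-set's own median, so levels can be compared between samples but not between genes. Of the 61179 probe-sets tested, 1320 could be tied to a gene through the platform annotation or the study's own lists of flowering genes, and are called annotated. Many of these carry only a locus symbol (LOC) and no stated function, so 275 probe-sets from 152 genes have a name that can be read. A response difference was called at a Benjamini-Hochberg adjusted p below 0.05 in limma, over all probe-sets, and a difference of at least 2-fold. Within one tissue, a change passed if its adjusted p was below 0.05, whatever its size. Because the samples are whole tissues, fewer cells of a type and less RNA per cell cannot be told apart.

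Replicate arrays correlated at 0.815 to 0.847 (ranks over all probe-sets). Of 39 probe-sets of green-tissue markers, 19 were at least 2-fold higher in leaf than in crown at 3 weeks and 1 was 2-fold lower. *PRK*, phosphoribulokinase of the Calvin cycle, stood at 2.89 to 3.79 on the leaf arrays of 9 and 3 weeks, and at 0.010 to 0.018 on the crown arrays. Of 28 probe-sets of histones and tubulins, which mark dividing tissue, 26 were at least 2-fold lower in leaf than in crown at 3 weeks. The spread of the values narrowed with time in both tissues, with an interquartile range of 0.54 and 0.58 log2 on the leaf arrays at 9 weeks against 0.76 and 0.86 at 3 weeks, and of 0.35 and 0.34 on the crown arrays at 9 weeks against 0.44 and 0.51 at 3 weeks. Because this narrowing moves with the results below, the values after quantile normalisation are also given for genes whose call it ended, and for some others.

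The response of the leaf differed from that of the crown for 7946 probe-sets, 13.0% of those tested. The difference was positive for 5558 (9.08%) and negative for 2388 (3.90%), with a median over all probe-sets of -0.09 and a median standard error of 0.22. Among the annotated probe-sets 336 of 1320 were called (25.5%), with 234 positive (17.7%) and 102 negative (7.73%), from 248 genes. Positive calls were the majority under every setting tried, but their share depended on the scaling and on dim probe-sets: 69.9% of all calls were positive as deposited, against 56.6% after quantile normalisation, 81.9% with each array centred on its median and 53.2% over the 45884 brighter probe-sets.

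The leaf changed more often than the crown, by a margin that depended on the scaling. Over all probe-sets 17.0% rose and 16.9% fell in leaf, and 3.57% rose and 7.43% fell in crown, while 8.05% passed in leaf and 2.26% in crown with at least a 2-fold change. After quantile normalisation these 2-fold counts were 3244 in leaf and 2212 in crown, against 4927 in leaf and 1383 in crown as deposited. Most of the called differences came from a change in one tissue. Of the positive calls, the leaf alone passed in 3710 (66.8%) and the crown alone in 618 (11.1%). Of the negative calls, the leaf alone passed in 1550 (64.9%) and the crown alone in 244 (10.2%). Both tissues moved in the same direction, by unequal amounts, in 249 positive and 76 negative calls. The tissues moved in opposite directions, each passing its own test, for 1332 probe-sets (2.18% of those tested), of which 889 rose in leaf and fell in crown (1.45%) and 443 fell in leaf and rose in crown (0.724%). The count of opposite changes depended on single arrays. Leaving out crown replicate 1 or 2 of 3 weeks gave 474 and 368, leaving out crown replicate 1 or 2 of 9 weeks gave 418 and 368, and leaving out leaf replicate 1 of 3 weeks gave 2134.

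**Figure D1:**
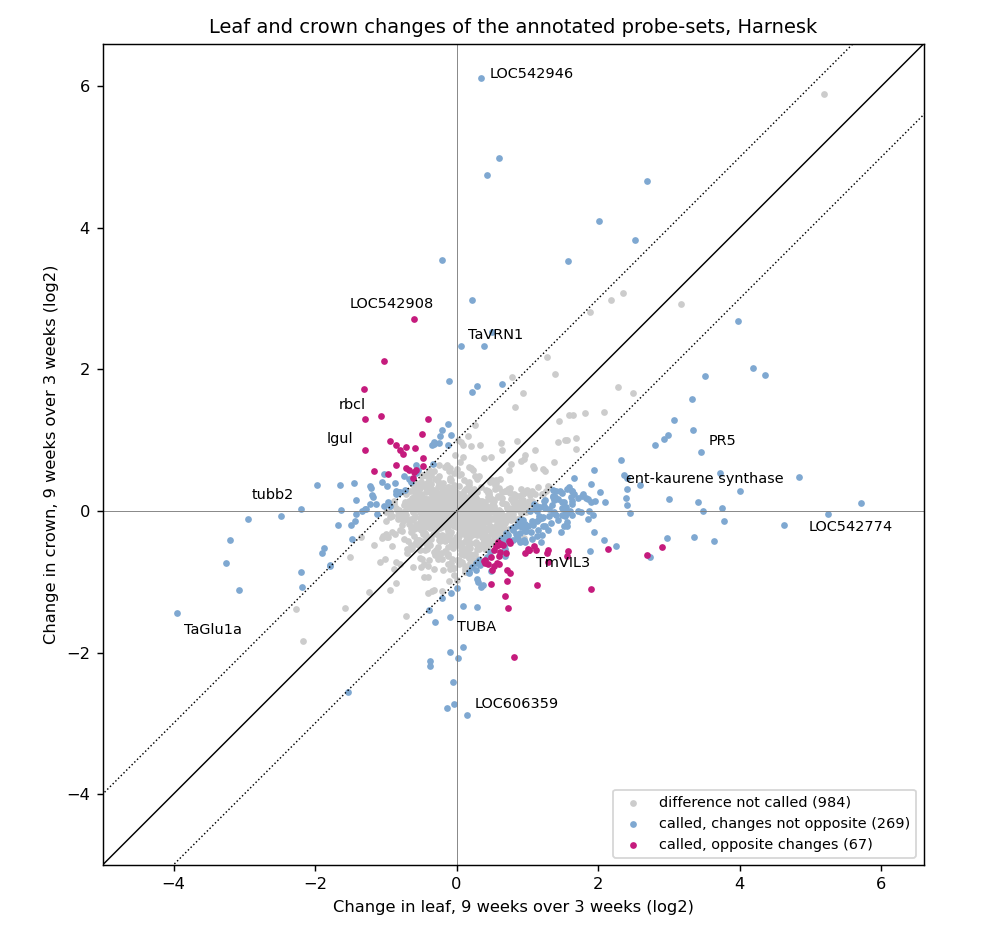
Log2 change from 3 to 9 weeks in leaf (horizontal) and in crown (vertical) for the 1320 annotated probe-sets of Harnesk, each point 1 probe-set. The solid line marks equal responses and the dotted lines a 2-fold response difference; the 67 called probe-sets with opposite changes lie to the upper left and the lower right of the origin, and most other calls lie near one of the axes.

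*TaVRN1* had the most negative response difference among the flowering genes, because its transcript rose more in crown. The probe-set of this gene with the largest difference read 0.834 and 0.758 in leaf at 9 weeks, against 0.652 and 0.895 at 3 weeks. In crown it read 1.89 and 1.62 at 9 weeks, against 0.356 and 0.338 at 3 weeks. The leaf values of both weeks overlapped, the crown values did not, and the response difference was -2.27 ± 0.34 (SE, adjusted p = 0.00044, limma).

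A second probe-set of *TaVRN1* rose in both tissues. It read 0.680 and 0.538 in leaf at 9 weeks, against 0.232 and 0.178 at 3 weeks, and 1.45 and 1.61 in crown at 9 weeks, against 0.135 and 0.127 at 3 weeks. The leaf change of 1.57 and the crown change of 3.54 both passed, and they differed by -1.97 ± 0.23 (adjusted p = 0.00010). At 5 weeks this probe-set was still at 0.227 and 0.189 in leaf and at 0.151 and 0.162 in crown, close to its 3-week values in both tissues. The remaining probe-sets of the gene gave -1.11 (adjusted p = 0.061) and -0.96 (adjusted p = 0.0043, under 2-fold). The order of the tissues turned for *TaVRN1*. The gap of leaf minus crown was -1.14 log2 at 9 weeks and 1.14 at 3 weeks for the first probe-set, and -1.33 at 9 weeks and 0.63 at 3 weeks for the second.

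*TaAGL10*, another MADS-box gene, had a smaller response difference in the direction of *TaVRN1*. Its levels were 0.805 and 0.830 in leaf at 9 weeks against 0.765 and 0.996 at 3 weeks, and 1.25 and 1.15 in crown at 9 weeks against 0.759 and 0.819 at 3 weeks. The difference of -0.70 passed the adjusted p (0.019) but not the 2-fold limit. *TaVRT2*, a MADS-box gene of the SVP type, differed the other way, by 0.87 (adjusted p = 0.0032), also under 2-fold. It read 1.77 and 1.71 in leaf at 9 weeks against 0.839 and 0.771 at 3 weeks, and 1.097 and 1.08 in crown at 9 weeks against 0.891 and 0.949 at 3 weeks. *TaAGL42* rose in both tissues, by 1.81 in leaf and 1.38 in crown, and its response difference of 0.43 did not pass (adjusted p = 0.13). *TaAGL33* stood at 16.6 and 13.2 in leaf at 9 weeks against 20.8 and 17.7 at 3 weeks, and at 0.895 and 0.771 in crown at 9 weeks against 0.948 and 1.02 at 3 weeks. It had a gap over 4 log2 between leaf and crown at both times (4.16 at 9 weeks, 4.29 at 3 weeks) and a response difference of -0.13 (adjusted p = 0.68). That of *TaAGL33* became -0.53 (adjusted p = 0.13) after quantile normalisation and -0.73 (adjusted p = 0.019) when normalised within each tissue. A probe-set that the study's list gives to *TaAGL41* or *TaAGL33* gave 0.47 (adjusted p = 0.15), and 0.93 (adjusted p = 0.014) after quantile normalisation.

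Of all 30 MADS-box probe-sets from the study's list, 1 was called positive, 3 negative and 26 were not called, with a median of -0.12 against -0.09 for all probe-sets. Of all probe-sets 9.08% were positive calls and 3.90% negative. The positive one was *TaAGL7*, at 1.25 and 1.44 in leaf at 9 weeks against 0.379 and 0.322 at 3 weeks, and at 1.19 and 1.11 in crown at 9 weeks against 0.771 and 0.763 at 3 weeks. Its difference of 1.35 ± 0.30 (adjusted p = 0.0048) fell to 0.52 after quantile normalisation and was then not called. The third negative one was *TaAGL22*, which fell in leaf by 1.12 log2 with a crown change of -0.05, for a difference of -1.07 (adjusted p = 0.0059); after quantile normalisation it was -0.77 and not called.

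**Figure D2:**
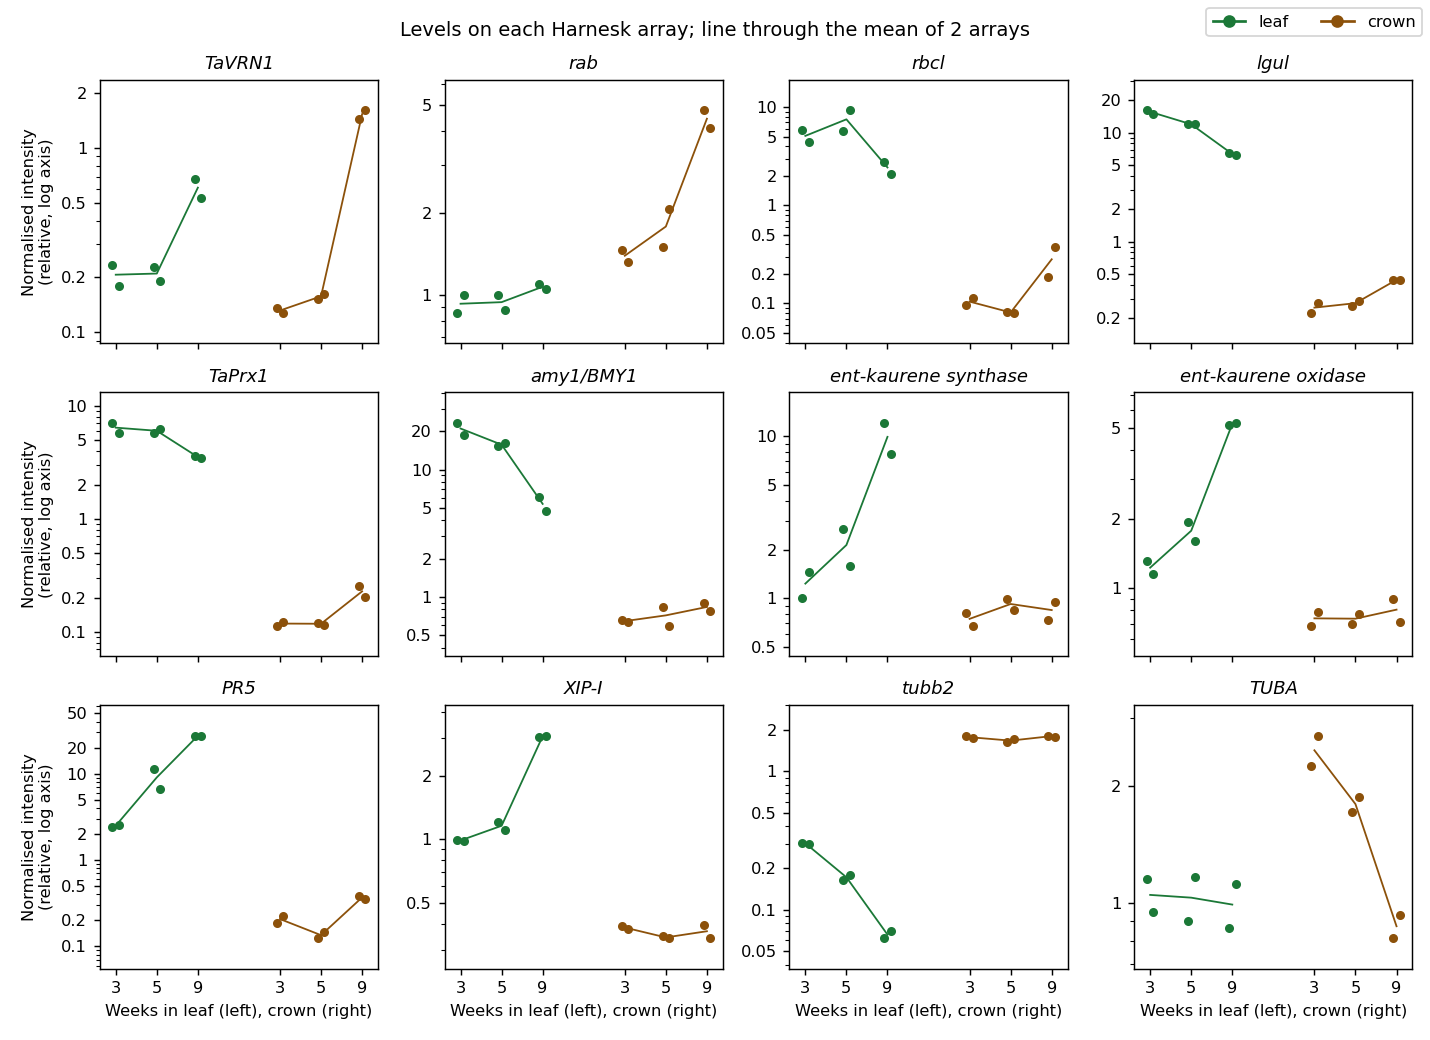
Normalised intensity (log axis) of 12 named transcripts on each Harnesk array at 3, 5 and 9 weeks, with leaf to the left of crown; points are single arrays and lines join the means of 2 arrays. *TaVRN1* (the probe-set that rose in both tissues) and *rab* rose most in crown, *ent*-kaurene synthase, *ent*-kaurene oxidase, *PR5* and *XIP-I* rose in leaf, and *rbcl*, *lgul* and *TaPrx1* fell in leaf while they rose in crown.

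Among homologues of Arabidopsis flowering genes, transcripts of 2 enzymes of early gibberellin synthesis rose in leaf with no change that passed in crown. *Ent*-kaurene synthase and *ent*-kaurene oxidase act in sequence to make the precursors of the gibberellins, hormones that promote stem growth and, in many plants, flowering. The synthase read 12.1 and 7.73 in leaf at 9 weeks, against 1.00 and 1.46 at 3 weeks. In crown it read 0.740 and 0.953 at 9 weeks, against 0.816 and 0.678 at 3 weeks. The leaf values rose 8.04-fold with no overlap, and the response difference was 2.82 ± 0.39 (adjusted p = 0.00025). A second probe-set for the synthase gave 1.04 ± 0.38, which did not pass (adjusted p = 0.058).

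The oxidase read 5.18 and 5.28 in leaf at 9 weeks, against 1.31 and 1.15 at 3 weeks, a 4.26-fold rise. Its crown values overlapped, at 0.897 and 0.713 at 9 weeks against 0.685 and 0.790 at 3 weeks. Its response difference was 1.97 ± 0.22 (adjusted p = 6.4e-05). Both enzymes stood slightly higher in leaf than in crown at the start (0.70 and 0.74 log2 at 3 weeks), so their gap widened with time. A probe-set for a later step of the pathway went the other way. The 20-oxidase *GA20ox1b*, which makes the precursors of active gibberellins, fell to 1.197 and 1.23 in leaf at 9 weeks, against 2.21 and 2.53 at 3 weeks, with 0.573 and 0.505 in crown at 9 weeks against 0.520 and 0.469 at 3 weeks. Its difference was -1.09 (adjusted p = 0.0019), and -0.87 after quantile normalisation, no longer called. The other 3 of the 4 probe-sets in the gibberellin list, all for 20-oxidases, were not called.

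Of 45 probe-sets for phase-transition homologues, 9 were called positive, 0 negative at the 2-fold limit and 36 not at all, with a median of 0.24. Positive calls made up 9.08% of all probe-sets and 17.7% of the annotated ones, and 9 of 45 lies near the second of these shares. With no limit on fold, 19 passed as positive and 5 as negative. In leaf 18 rose and 8 fell, and in crown 0 rose and 5 fell, where 17.0% and 16.9% of all probe-sets rose and fell in leaf and 3.57% and 7.43% in crown. The study supplied this list and examined it in these samples, so its direction is not independent evidence.

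*TmVIL3*, a homologue of the Arabidopsis vernalisation gene *VIN3*, moved in opposite directions. It rose to 0.547 and 0.462 in leaf at 9 weeks, against 0.290 and 0.215 at 3 weeks, and fell to 0.983 and 0.940 in crown at 9 weeks, against 1.38 and 1.42 at 3 weeks. The difference was 1.55 ± 0.22 (adjusted p = 0.00027). Leaf stood below crown at both times, with a gap of -0.94 log2 at 9 weeks and -2.48 at 3 weeks.

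*LHY*, a transcription factor gene of the circadian clock, differed by 1.15 (adjusted p = 0.00053). It stood at 2.76 and 2.57 in leaf at 9 weeks, against 0.980 and 1.103 at 3 weeks, and at 0.667 and 0.752 in crown at 9 weeks, against 0.600 and 0.624 at 3 weeks. A second *LHY* probe-set gave 0.98, just under 2-fold, through a fall in crown (-0.98) with a leaf change of 0.00. It was called after quantile normalisation, at 1.64 (adjusted p = 0.00017). The clock gene *GI* differed by -0.63 (adjusted p = 0.015), and none of the 5 probe-sets of *TOC1*, also of the clock, passed, with differences of -0.48 to 0.12. Clock transcripts follow the time of day. By the study's methods plants were sampled halfway through the light period, whose length differed between the weeks. The photoreceptor gene *PHYA* differed by 0.67 (adjusted p = 0.034), but by -0.27 after quantile normalisation, so its direction was not settled. Both probe-sets for *FT* (*TaVRN3*), the mobile flowering signal made in leaves, gave -0.44 (adjusted p = 0.14) and 0.18 (adjusted p = 0.50).

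The other called homologues were *FCA*, *FVE*, *ESD4* and *FWA*, which in Arabidopsis act in the autonomous pathway (*FCA*, *FVE*), in SUMO removal (*ESD4*) and as a homeodomain factor (*FWA*). All of them rose in leaf from a level below that of crown. *FCA* read 0.679 and 0.586 in leaf at 9 weeks, against 0.327 and 0.350 at 3 weeks, and 1.31 and 1.24 in crown at 9 weeks, against 1.55 and 1.60 at 3 weeks. It differed by 1.21 ± 0.17 (adjusted p = 0.00036), and *FVE* by 1.05, *ESD4* by 1.19 and *FWA* by 1.1. Only 2 of 6 *FCA* probe-sets were called, and the lowest of the 6 gave -0.96. After quantile normalisation *FCA* gave 0.49, *FVE* 0.10, *ESD4* 0.48 and *FWA* 0.71, and none of these was called.

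Called genes that lie on none of the lists were named after their values were seen, and those for initiation factors and the TATA-binding protein were positive. *TaTif4B1* (initiation factor eIF4B) rose to 0.720 and 0.702 in leaf at 9 weeks, against 0.325 and 0.314 at 3 weeks, with 1.31 and 1.17 in crown at 9 weeks against 1.15 and 1.24 at 3 weeks. *TBP1* (TATA-binding protein, 1.09), *eIF4E* (the cap-binding factor, 1.05) and *TaTif4B1* (1.09) were called through a leaf rise, and *eIF-2-beta* (1.09) through opposite changes, 0.63 in leaf and -0.47 in crown. None of these 4 was called after quantile normalisation, where they lay between 0.37 and 0.61. Other genes of translation were not called or went the other way. *TEF1* gave 0.83 and 0.99, *RPS29* 0.56 and 0.68, and the ribosomal protein gene *RPL9* was called at -1.72. At 3 weeks *RPL9* was higher in leaf than in crown, by 2.82 log2, while *TEF1* and *RPS29* were lower in leaf. *FKBP70*, a peptidyl-prolyl isomerase gene, rose to 0.513 and 0.454 in leaf at 9 weeks, against 0.261 and 0.190 at 3 weeks, and fell to 1.85 and 1.91 in crown at 9 weeks, against 2.68 and 2.80 at 3 weeks. Its difference of 1.66 (adjusted p = 0.00019) became 0.82 after quantile normalisation and was no longer called.

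The light-reaction and redox lists had the most negative medians among the lists, and calls on the photosynthesis and redox lists were all negative. In leaf 2 of 5 light-reaction, 10 of 34 Calvin cycle and photorespiration and 9 of 14 redox probe-sets fell, and in crown 4, 3 and 6 of them rose. Of all probe-sets 16.9% fell in leaf and 3.57% rose in crown. Negative calls made up 3.90% of all probe-sets and 7.73% of the annotated ones. All 5 probe-sets for the light reactions were negative, 3 of them called, with a median of -1.29. Of 34 probe-sets for the Calvin cycle and photorespiration, 28 of them for *rbcl*, 7 were called negative and 0 positive, with a median of -0.38. Of 14 redox probe-sets, from 6 genes, 9 were called negative and 0 positive, with a median of -1.27. The called ones were of *TaPrx1*, *lgul*, *CAT1* and *Trx-M*. Those of *GSTZ1* (-0.23 to 0.18) and *PER1* (-0.61 and 0.34) were not called. The 2 probe-sets of *CAT1* belong to both of the last lists. After quantile normalisation the negative calls were 0 for the light reactions, 3 for the Calvin cycle and photorespiration, and 6 for redox.

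The probe-set of *rbcl*, the large subunit of Rubisco, that stood apart read 2.77 and 2.10 in leaf at 9 weeks, against 5.82 and 4.39 at 3 weeks. In crown it read 0.184 and 0.380 at 9 weeks, against 0.096 and 0.113 at 3 weeks. Its response difference was -2.41 ± 0.43 (adjusted p = 0.0014). One other *rbcl* probe-set was called, at -1.22, and 26 were not, and over all 28 the differences ran between -2.41 and 0.32. *rbcl* is encoded in the chloroplast, and these probe-sets can share sequence.

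*lgul*, which by its synonym encodes lactoylglutathione lyase, an enzyme that removes methylglyoxal, fell to 6.53 and 6.21 in leaf at 9 weeks, against 16.1 and 14.99 at 3 weeks. It rose to 0.445 and 0.446 in crown at 9 weeks, against 0.221 and 0.274 at 3 weeks. No values overlapped within either tissue, and the difference was -2.14 ± 0.19 (adjusted p = 1.2e-05). The second *lgul* probe-set was called at -1.30, through the leaf alone.

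All 4 probe-sets of *TaPrx1*, on the redox list, were called, between -1.80 and -1.25, and 3 of them had opposite changes. The first read 3.61 and 3.45 in leaf at 9 weeks, against 7.08 and 5.76 at 3 weeks, and 0.254 and 0.201 in crown at 9 weeks, against 0.113 and 0.123 at 3 weeks. *Trx-M*, chloroplast thioredoxin m, also had opposite changes: 2.66 and 2.74 in leaf at 9 weeks against 3.72 and 3.86 at 3 weeks, and 0.118 and 0.118 in crown at 9 weeks against 0.055 and 0.056 at 3 weeks, a difference of -1.58 (adjusted p = 3.3e-05).

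*FBP*, fructose-bisphosphatase, had 2 called probe-sets, at -1.54 and -1.47, the second with opposite changes. *CAT1*, a catalase, had 2 called probe-sets, at -1.47 and -1.06. *OEE2*, a subunit of the oxygen-evolving complex, fell to 2.94 and 2.92 in leaf at 9 weeks, against 5.597 and 5.86 at 3 weeks, and rose to 0.088 and 0.082 in crown at 9 weeks, against 0.056 and 0.063 at 3 weeks, for a difference of -1.48. *OEE1* of the same complex (-1.30) and *petC*, the Rieske protein of the cytochrome complex (-1.29), were called through the crown, where they rose by 0.98 and 1.06. *PRK* was called at -1.005, but both crown arrays of 3 weeks lay at the lowest value in the table, 0.01, so its crown rise is a bound.

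Several of these crown levels were a small share of the leaf levels. At 9 weeks the gap was 5.11 log2 for *OEE2*, 4.38 for *petC*, 6.89 for the first *CAT1* probe-set and 7.51 for *PRK*. The second *CAT1* probe-set had a far smaller gap, 1.89 log2 at 3 weeks, which its response difference of -1.06 narrowed by 9 weeks. The deposited values carry no detection call, so how much of such a level is background was not tested. Over the whole list of 39 green-tissue probe-sets, 0 rose and 12 fell in leaf, and 7 rose and 0 fell in crown. Of all probe-sets 17.0% rose and 16.9% fell in leaf, and 3.57% rose and 7.43% fell in crown. The green-tissue list shares its members with the light-reaction and Calvin cycle lists above, 28 of them for *rbcl*, so these counts are not a separate result. The summed value of the 39 was 67.2 and 69.5 in leaf at 9 weeks against 102 and 92.1 at 3 weeks. In crown it was 25.3 and 26.1 at 9 weeks against 23.9 and 24.4 at 3 weeks. Such a sum adds ratios to each probe-set's own median, so it is not an amount of transcript. The crown samples held immature leaf bases, and the part of a changed share of green tissue in these results was not tested. After quantile normalisation *Trx-M* (-0.85), *OEE2* (-0.62), *OEE1* (-0.82), *petC* (-0.59), *PRK* (-0.68), the second *FBP* (-0.60), the first *CAT1* (-0.86), the second *CAT1* (-0.95) and the second *rbcl* (-0.68) were negative but not called, while the first *rbcl*, both *lgul*, all *TaPrx1* and the first *FBP* were still called.

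Among other genes of carbohydrate metabolism, *amy1/BMY1*, by its synonyms an amylase gene, fell in leaf. It read 6.04 and 4.72 in leaf at 9 weeks, against 23.3 and 18.7 at 3 weeks. In crown it read 0.894 and 0.778 at 9 weeks, against 0.661 and 0.633 at 3 weeks, a change that did not pass. The response difference was -2.33 ± 0.26 (adjusted p = 6.3e-05). *AGA.1*, the large subunit of ADP-glucose pyrophosphorylase, which makes the sugar nucleotide for starch, fell in leaf by 0.68 and rose in crown by 0.58. Its difference of -1.26 (adjusted p = 0.00023) was -0.98 after quantile normalisation, just under 2-fold. The ribosomal protein gene *RPL9*, on none of the lists, fell in leaf by 1.16 and rose in crown by 0.56. Its difference was -1.72 (adjusted p = 0.00022). The fructan exohydrolase genes *6-FEH* and *1-FEH*, whose enzymes break down fructan, had 4 probe-sets between -0.68 and 0.97, none of them called.

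Of 27 probe-sets for grain storage proteins and starch, 4 were called negative and 0 positive, with a median of -0.28, where 3.90% of all and 7.73% of annotated probe-sets were called negative. Besides *amy1/BMY1* and *AGA.1* these were *LMW-GS*, a glutenin gene (-1.11), and *Gli-D2*, a gliadin gene (-1.09). Without the 2 *AGA.1* probe-sets and that of *AGP-S*, the summed value of the other 24 was 31.4 and 29.7 in leaf at 9 weeks against 50.9 and 49.0 at 3 weeks, and 23.9 and 23.7 in crown at 9 weeks against 21.8 and 20.7 at 3 weeks. This too is a sum of ratios and not an amount of transcript. Most of the fall in the leaf sum lay in *amy1/BMY1*: without it the 23 others summed to 25.3 and 24.9 in leaf at 9 weeks against 27.7 and 30.3 at 3 weeks. *Gli-D2* was not called after quantile normalisation (-1.10, adjusted p = 0.064). *UBC1/UBC2*, for a ubiquitin-conjugating enzyme, was called at -1.01 and was also not called after quantile normalisation, at -0.79.

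**Figure D3:**
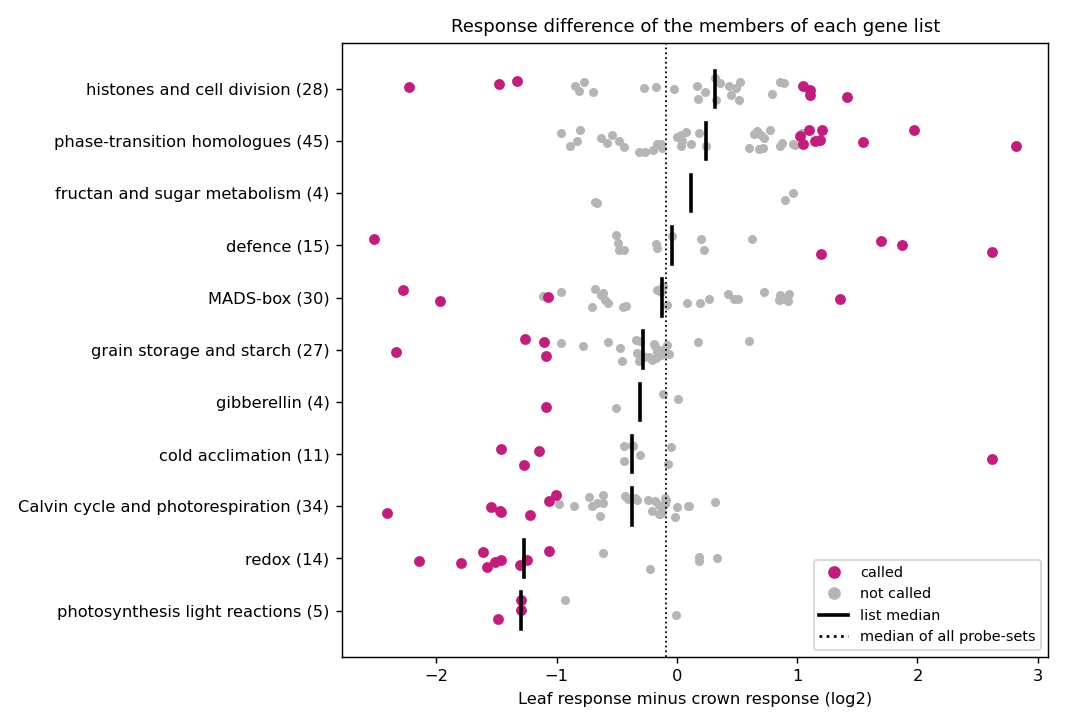
Response difference (log2, leaf minus crown) of every probe-set in 11 gene lists, with called probe-sets in colour, others in grey, the median of each list as a bar and the median of all probe-sets, -0.09, as a dotted line. The light-reaction and redox lists lie furthest to the negative side, with medians of -1.29 and -1.27; numbers in brackets are probe-sets per list.

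Most genes listed for cold acclimation and defence were not called, and the called ones went in both directions. *rab*, a dehydrin gene, whose products protect cells during water loss and freezing, rose in crown alone on all 3 of its probe-sets. The first read 1.09 and 1.05 in leaf at 9 weeks against 0.856 and 0.996 at 3 weeks, and 4.79 and 4.12 in crown at 9 weeks against 1.47 and 1.32 at 3 weeks. Its difference was -1.46 ± 0.23 (adjusted p = 0.00069), and the others gave -1.27 and -1.15. The leaf was already below the crown at 3 weeks for *rab*, by 0.59 to 1.03 log2 over the 3 probe-sets, so here the gap widened. Of the 11 cold-acclimation probe-sets, these 3 and *PR5*, also on the defence list, were called. The other 7 were not, among them *COR410*, another dehydrin gene, at -0.05 (adjusted p = 0.91). Calls in either direction made up 13.0% of all probe-sets and 25.5% of the annotated ones.

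*PR5*, a thaumatin-like pathogenesis-related gene, rose most in leaf among the named defence genes. It read 27.2 and 27.5 in leaf at 9 weeks, against 2.43 and 2.56 at 3 weeks, an 11.0-fold rise. In crown it read 0.381 and 0.357 at 9 weeks, against 0.188 and 0.227 at 3 weeks, so it rose in both tissues and the response difference was 2.62 ± 0.29 (adjusted p = 6.2e-05). *XIP-I*, a xylanase inhibitor that acts on fungal enzymes, read 3.05 and 3.09 in leaf at 9 weeks, against 0.990 and 0.987 at 3 weeks, while its crown values of 0.394 and 0.343 at 9 weeks lay across those of 3 weeks, 0.388 and 0.379. Its probe-sets differed by 1.70 and 1.87.

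*Glc1*, by its synonym a beta-1,3-glucanase gene, rose in leaf by 0.61 and fell in crown by 0.59, and was called on 1 of 2 probe-sets (1.201, adjusted p = 0.0012). *TaGlu1a*, a beta-glucosidase gene, fell in both tissues and far more in leaf. It read 0.226 and 0.176 in leaf at 9 weeks, against 3.03 and 3.15 at 3 weeks, and 1.11 and 1.18 in crown at 9 weeks, against 3.09 and 3.099 at 3 weeks. Leaf and crown were level at the start, with a gap of -0.00 log2, and the response difference was -2.52 ± 0.22 (adjusted p = 1.3e-05). Over the 15 defence probe-sets 4 were called positive, 1 negative and 10 not at all, with a median of -0.04, where 9.08% of all and 17.7% of annotated probe-sets were called positive.

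Among the genes of dividing tissue, tubulins and histones did not move together. *tubb2*, a beta-tubulin gene, fell to 0.062 and 0.070 in leaf at 9 weeks, against 0.304 and 0.300 at 3 weeks, with 1.82 and 1.78 in crown at 9 weeks against 1.80 and 1.74 at 3 weeks. The difference was -2.22 ± 0.17 (adjusted p = 4.5e-06), and *tubb1* (-1.48) and 1 *Tubb5* probe-set (-1.33) were also called. The alpha-tubulin gene *TUBA* differed the other way, because it fell in crown: 0.865 and 1.12 in leaf at 9 weeks against 1.15 and 0.951 at 3 weeks, and 0.813 and 0.934 in crown at 9 weeks against 2.25 and 2.70 at 3 weeks. Its difference was 1.41 ± 0.25 (adjusted p = 0.0015).

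Of 18 histone probe-sets 3 were called and positive, and 15 were not called. Positive calls made up 9.08% of all probe-sets and 17.7% of the annotated ones, and 3 of 18 lies near the second share. The called ones were *H2A-9* (1.11), *wcH2B-6* (1.11) and *H2A-3* (1.05). The called *H2A-9* probe-set lay at 0.048 and 0.043 in leaf at 9 weeks against 0.022 and 0.027 at 3 weeks, and at 5.57 and 5.52 in crown at 9 weeks against 6.66 and 6.17 at 3 weeks. After quantile normalisation *H2A-9* (0.66) and *wcH2B-6* (0.41) were not called, and the median of the whole list of 28 histone and tubulin probe-sets turned to -0.34, against 0.32 as deposited. The list then held 2 positive and 7 negative calls, against 4 positive and 3 negative as deposited. The summed value of the list, again a sum of ratios, was 7.21 and 7.49 in leaf at 9 weeks against 7.57 and 7.22 at 3 weeks. In crown it was 307 and 312 at 9 weeks against 386 and 366 at 3 weeks.

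The largest differences among the annotated probe-sets belonged to genes with a locus symbol only. On the negative side the first 3 were LOC542946, LOC100125679 and LOC542855, whose crown arrays of 3 weeks all stood at the lowest value, 0.01. LOC542946 read 2.36 and 2.30 in leaf at 9 weeks against 1.90 and 1.75 at 3 weeks, and 0.691 and 0.694 in crown at 9 weeks. Its crown rise was thus at least 69.2-fold, and that of LOC100125679 at least 31.7-fold. In leaf LOC100125679 and LOC542855 also rose, by 0.60 and 0.43 log2. Their response differences of -5.76, -4.38 and -4.32 are bounds for the same reason. LOC543256 followed at -3.75 and LOC543472 at -2.76, both through a crown rise. Differences that rest on such low levels depended on how low values were treated. With an offset of 0.05 before log2, LOC542946 gave -3.29, LOC100125679 -2.02, LOC542855 -1.99, LOC543256 -2.11, LOC542880 -1.87 and LOC543150 -1.51, all still called, while *PRK* (-0.47) and *H2A-9* (0.57) were not called. LOC543150 (-2.83) and LOC100037609 (-2.79) fell in leaf, and LOC542908 (-3.32), LOC542880 (-3.13) and LOC542989 (-3.03) had opposite changes. LOC542855 and LOC543472 are immediate neighbours among the protein-coding genes of the RefSeq wheat assembly (IWGSC CS RefSeq v2.1), and neighbours of like sequence can share probes.

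On the positive side LOC542774 led, at 1.72 and 1.71 in leaf at 9 weeks against 0.031 and 0.034 at 3 weeks, with 1.29 and 1.28 in crown at 9 weeks against 1.23 and 1.13 at 3 weeks. This 52.7-fold rise closed a gap that had put leaf far below crown, and the response difference was 5.601 ± 0.23 (adjusted p = 5.0e-08). LOC543498 (5.29), LOC780687 (4.82), LOC543330 (4.36), LOC606308 (4.06), LOC543287 (3.92), LOC542773 (3.72), LOC100037560 (3.70), LOC100037518 (3.38), LOC543197 (3.35) and LOC543492 (3.29) also rose in leaf with no crown change that passed on these probe-sets. LOC542999 (3.32) rose in leaf and fell in crown. LOC542774 and LOC780687 are immediate neighbours on the same assembly, as are LOC543197 and LOC543196, a gene called with opposite changes.

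Opposite changes were found for 67 annotated probe-sets from 53 genes, 5.08% of the annotated probe-sets. Of all probe-sets 2.18% had them, 1.45% with a leaf rise and 0.724% with a leaf fall. Annotated probe-sets were also called more often, 25.5% against 13.0% of all. Leaving out 1 crown array of 3 or 9 weeks cut the 1332 opposite changes over all probe-sets to between 368 and 474. In 24 of the 67, from 18 genes, the leaf fell and the crown rose, with differences between -3.32 and -1.08. The 8 of these genes with a readable name are *rbcl*, *lgul*, *TaPrx1*, *RPL9*, *Trx-M*, *OEE2*, *FBP* and *AGA.1*. The other 10 were LOC542908, LOC542880, LOC542989, LOC542804, LOC100037634, LOC543085, LOC780623, LOC100037550, LOC543355 and LOC543216. LOC542908 was unlike the rest of them in its levels, since crown was the higher tissue, at 54.9 and 56.3 at 9 weeks against 8.08 and 8.86 at 3 weeks, with 0.090 and 0.108 in leaf at 9 weeks against 0.136 and 0.166 at 3 weeks.

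In the other 43 probe-sets, from 35 genes, the leaf rose and the crown fell, with differences between 1.03 and 3.42. Of these, 4 genes have a readable name: *eIF-2-beta*, *Glc1*, *TmVIL3* and *FKBP70*. The 31 others were LOC542991, LOC542871, LOC543447, LOC780602, LOC543463, LOC543311, LOC542890, LOC542992, LOC542814, LOC543111, LOC780670, LOC100037602, LOC780656, LOC780661, LOC543242, LOC100125710, LOC542848, LOC780626, LOC543246, LOC543390, LOC542836, LOC100037596, LOC100125701, LOC543338, LOC543354, LOC543196, LOC780574, LOC543100, LOC542999, LOC543201 and LOC780687. Over both classes the smallest leaf changes were -0.41 and 0.39 log2 and the smallest crown changes 0.46 and -0.42, while some genes moved clearly in both tissues, such as LOC542989, with -1.31 in leaf and 1.72 in crown. After quantile normalisation 12 of the opposite probe-sets with a locus symbol only were no longer called. They were 2 each of LOC543355 (-0.77 and -0.74), LOC780626 (0.61 and 0.66) and LOC780661 (0.67 and 0.91), and 1 each of LOC780623 (-0.78), LOC780602 (0.19), LOC543447 (0.40), LOC543311 (0.47), LOC780656 (0.75) and LOC780670 (0.87).

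The called differences mostly brought the tissues closer. Of the 5558 positive calls, leaf stood below crown at 3 weeks in 4515 (81.2%), and the gap was smaller at 9 weeks than at 3 weeks in 4032 (72.5%). Of the 2388 negative calls, leaf stood above crown at 3 weeks in 2206 (92.4%), and the gap was smaller at 9 weeks in 2070 (86.7%). The gap at 3 weeks shares arrays with the response difference, so these shares are a description. They were not taken over all probe-sets or after quantile normalisation. Gaps of 2-fold also became fewer by 9 weeks over all probe-sets, as given below. The arrays of 5 weeks do not enter the contrast. By them leaf was at least 2-fold lower than crown in 3292 of the positive calls (59.2%) and 2-fold higher in 699 (12.6%), where 17.7% and 10.7% of all probe-sets had such gaps. For the negative calls the figures were 143 lower (5.99%) and 1309 higher (54.8%).

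A change in the order of the tissues was less common, with 1200 positive calls (21.6%) and 633 negative calls (26.5%). With both gaps past 2-fold and the adjusted p, it was found in 35 and 5. Over all probe-sets 13413 differed 2-fold between leaf and crown at 9 weeks (21.9%), against 18889 at 3 weeks (30.9%). Leaf was the higher tissue in 9.66% at 9 weeks and in 12.4% at 3 weeks. After quantile normalisation, which gives all arrays the same spread, the counts were 15537 at 9 weeks and 16911 at 3 weeks.

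**Figure D4:**
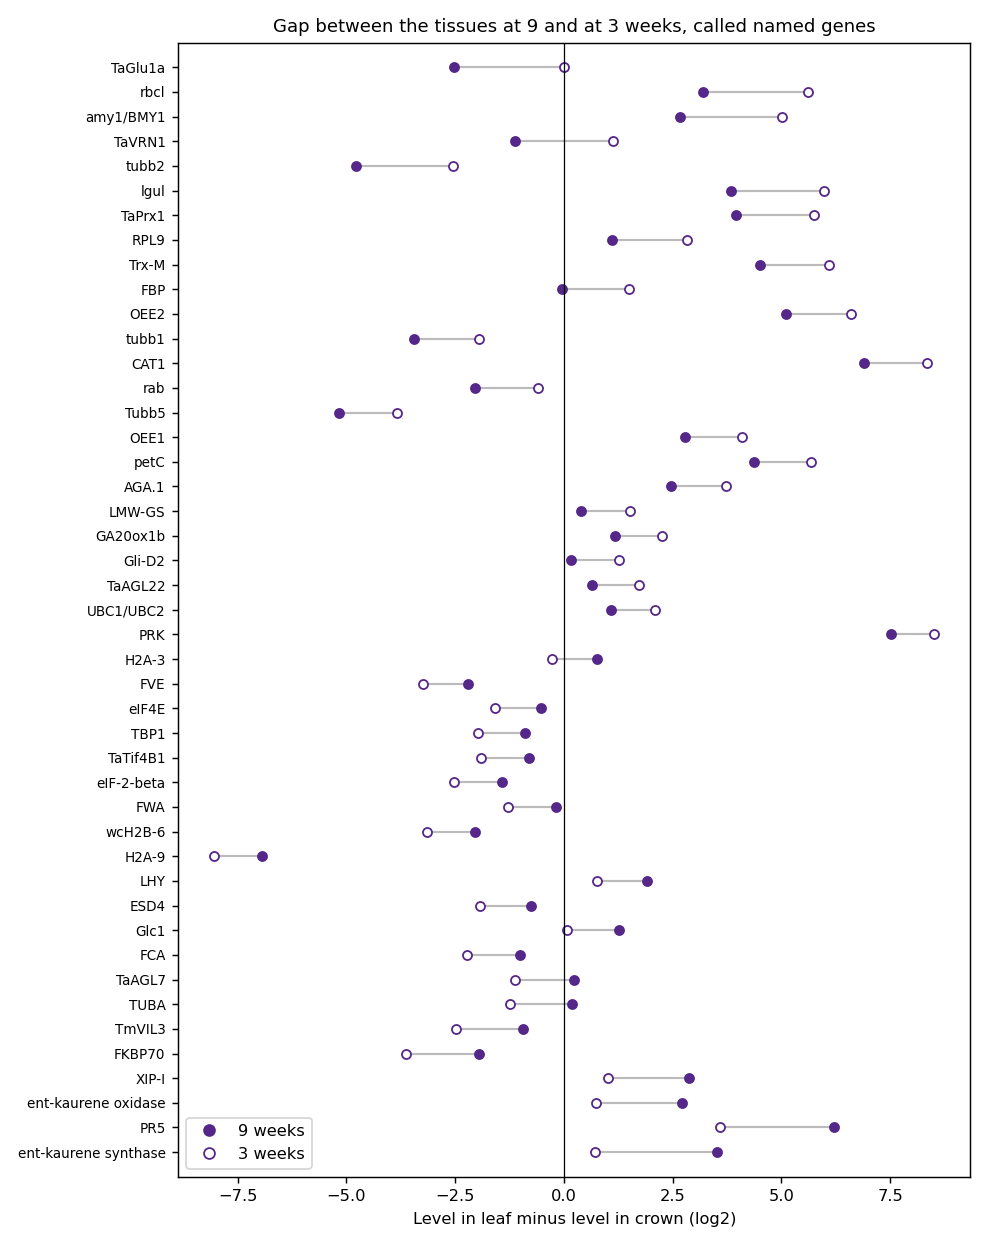
Gap between the tissues (level in leaf minus level in crown, log2) at 9 weeks (filled) and at 3 weeks (open) for the 45 named genes with a called response difference, 1 probe-set a gene, ordered by response difference from the most negative at the top. For most genes the filled point lies nearer to 0, as for *rbcl* and *lgul*, while genes such as *ent*-kaurene synthase, *PR5*, *rab*, *tubb2* and *TaGlu1a* lie further from it at 9 weeks, and *TaVRN1*, *TaAGL7*, *TUBA* and *H2A-3* lie on opposite sides of it at 9 and 3 weeks.

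The 57 called probe-sets with a readable name, 23 positive and 34 negative, differed in how they depended on the scaling. After quantile normalisation 30 were called in the same direction, 27 were no longer called, and 0 turned. Those no longer called had differences as deposited between -1.58 and 1.66. Normalising within each tissue gave 31 and 26. Leaving out 1 array at a time ended the call in at least 1 setting for one probe-set each of *CAT1*, *ESD4*, *FCA*, *FVE*, *GA20ox1b*, *Gli-D2*, *H2A-3*, *H2A-9*, *LMW-GS*, *PRK*, *TBP1*, *TaAGL22*, *TaPrx1*, *UBC1/UBC2*, *eIF4E*, *rbcl* and *wcH2B-6*, all with differences between -1.25 and 1.19 as deposited.

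**Figure D5:**
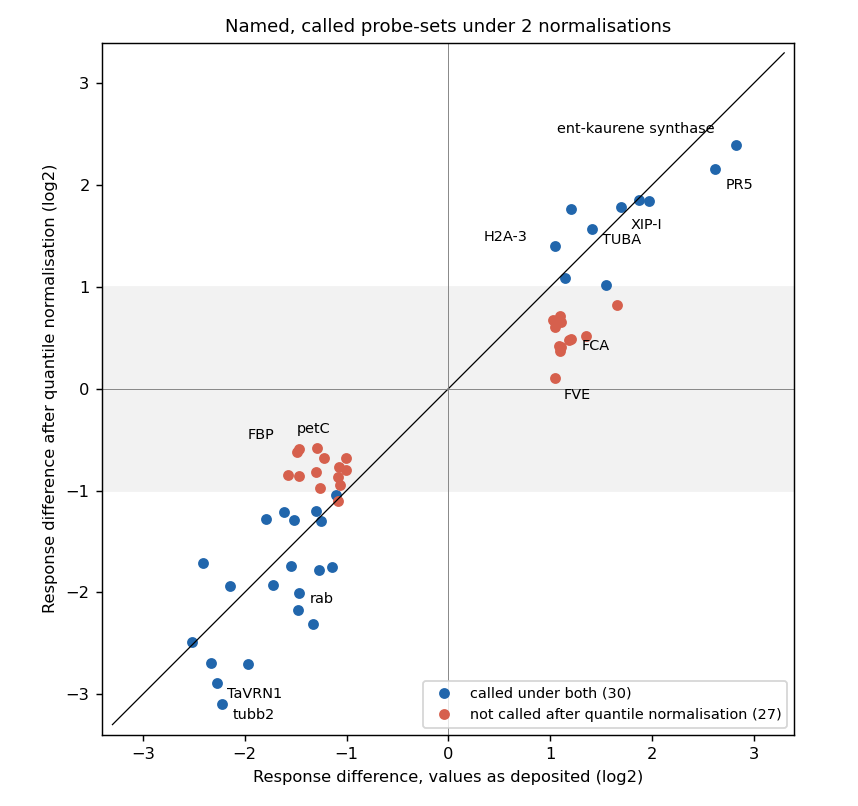
Response difference (log2) of the 57 called probe-sets with a readable name, with values as deposited (horizontal) and after quantile normalisation (vertical); the line marks equal values and the grey band values under 2-fold. Blue points, 30, were called under both and red points, 27, only as deposited; *TaVRN1*, *tubb2*, *ent*-kaurene synthase and *PR5* lie far from the band and *FVE* lies near 0.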

How the data were processed

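Leaf and crown RNA of Harnesk was hybridised to Affymetrix Wheat Genome Arrays. The deposited values are linear ratios: per the study's methods the authors normalised each chip by RMA (version not given in the labels) and divided each gene by its median in GeneSpring. No raw intensities were used here. The 111 array controls were left out, and log2 was taken with no pseudocount (lowest value 0.01). One model with the means of 6 groups was fitted to all 12 Harnesk arrays in R 4.3.3 with limma 3.58.1 (6 residual degrees of freedom). The other 30 arrays, of 2 varieties and the controls, were not used. In simulated data on 61179 probe-sets, 100 were given a 2.5-fold and 100 an 8-fold response difference, and the rest none. Of these, 58% and 98% were recovered, with 6 false calls. The noise was normal, far fewer probe-sets differed than were called in the data, and effects of scaling were not simulated. The rates may therefore not carry over to the data. Named genes are the 12 with the largest difference per direction, all annotated probe-sets with opposite changes, up to 6 called members of each list and 12 preset flowering genes, with every other called gene of readable name. Members, lists and tests were chosen with earlier results of these data known. Readable names are RefSeq synonyms or the names in the study's lists. Quantile normalisation, median centring, an offset of 0.05, a filter on dim probe-sets, a variance trend, the 8 arrays alone, no moderation, a replicate block and leaving out each array were tried. Within-tissue quantile normalisation and leaving out probe-sets at the lowest value were added after the data were seen.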

Additional observations from a re-analysis of the deposited data

Results flagged for a closer look

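The test of the difference between tissues passed for 7946 probe-sets, and for 1332 of them leaf and crown moved in opposite directions. The named probe-sets with opposite changes are given by their response difference (log2, leaf minus crown). Leaf fell and crown rose for *rbcl* (-2.41), *lgul* (-2.14), *RPL9* (-1.72), *Trx-M* (-1.58), *OEE2* (-1.48), *FBP* (-1.47), *AGA.1* (-1.26) and 3 probe-sets of *TaPrx1* (-1.80, -1.61 and -1.51). Leaf rose and crown fell for *FKBP70* (1.66), *TmVIL3* (1.55), *Glc1* (1.2) and *eIF-2-beta* (1.09). With 2 arrays in a group, no array could be tested as standing apart from its group.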

How the results depend on the processing

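The response difference gave 7946 calls, and 4200 (2233 positive, 586 opposite) over the 45884 brighter probe-sets, where fewer were tested. Quantile normalisation gave 3318 positive calls against 5558, and within each tissue 3454 positive and 883 opposite; median centring gave 1565 negative calls against 2388 and moved the median over all probe-sets to 0.04 from -0.09. Leaving out 1 array gave 7312 to 10173 calls, 5105 to 6297 positive, 2207 to 3876 negative (the highest without leaf replicate 1 of 3 weeks) and 368 to 2134 opposite. The cause was not tested. The leaf change gave 4927 calls, against 3244 after quantile normalisation and 2524 over the brighter probe-sets, and the crown change 1383, against 2212 after quantile normalisation. The methods' t-test gave 4229 and 1320, and 4 and 3 after Benjamini-Hochberg adjustment. Over the brighter probe-sets the gap between tissues passed for 7630 at 9 weeks and 10558 at 3 weeks. Replicate numbers did not pair the arrays: deviations correlated at -0.09 to 0.07, over 0.1 in 0 of 15 pairs, and with the replicate block 7945 differences were called, 5558 of them positive, and 1229 opposite. Of 128 named called probe-sets, 39 lost the call after quantile normalisation, 15 with an offset of 0.05 before log2 and 1 to 12 with 1 array left out (the most without leaf replicate 1 of 9 weeks), and 0 turned. *PHYA* turned to -0.27 after quantile normalisation. *TOC1* probe-sets, never called, turned to -0.043 after quantile normalisation and 0.053 within tissue, and with 1 array left out ran from -0.28 to 0.51, -0.41 to 0.076 and -0.10 to 0.19. *TaAGL33* ran from -0.30 to 0.038 with 1 array left out. With 2 arrays in each group, changes under about 2.5-fold can be missed.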

Other observations

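Some transcripts did not run one way through the 3 times. *LHY* averaged highest in leaf at 5 weeks, with 0.980 and 1.103 at 3 weeks, 4.83 and 4.69 at 5 weeks, and 2.76 and 2.57 at 9 weeks. Its crown values were 0.600 and 0.624 at 3 weeks, 1.32 and 1.37 at 5 weeks, and 0.667 and 0.752 at 9 weeks. The clock gene *GI* was lowest at 5 weeks in both tissues, at 1.06 and 1.08 in leaf and 0.246 and 0.269 in crown.

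For 3 annotated genes, LOC543498, LOC542908 and LOC543150, called probe-sets of 1 symbol went in both directions. LOC543150 gave -2.83 on one probe-set and 1.55 on another, and LOC543498 gave 5.29 and -1.11.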
